A study of Saccharomyces cerevisiae with 24 samples.

Results

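The subtelomeric belt is the stretch of every yeast chromosome that lies more than 20 kb and at most 50 kb from its nearest end, inside the outermost, repeat-rich 20 kb. Its members were the 1-kb bins whose midpoint lies in that range on the S288C R64 assembly, whatever their replication time. The rule allows 960 bins on the 32 ends of the 16 nuclear chromosomes. The tables held 904 of them, which is 7.98% of the 11328 bins in all, and 900 had a ratio in all 22 tables. A replication time could be fitted for 901 in both strains, and the other 3 were left out.

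DNA from synchronised budding yeast (Saccharomyces cerevisiae) was sequenced as cells went through a single S-phase. The comparison asked how an excess of limiting initiation factors shifts the time at which DNA is copied. Both strains were MATa W303 cells with the alleles can1-100, rad5-535, ade2-1 and trp1-1 as well as ura3-1, leu2-3, 112 and his3-11, 15, and both lacked SML1, whose product inhibits ribonucleotide reductase. In the control, sml1Δ, the gene was replaced by URA3. In sml1Δ SSDDCS it was replaced by HphNT (HphMX in the study's strain list), and 3 constructs carried the galactose-inducible GAL1-10 promoter: Sld7 with Cdc45 at leu2, SLD3-A with Dbf4-A at his3, and Sld2 with Dpb11 at trp1. Cells of both strains were grown in raffinose, arrested in G1 with alpha factor, given galactose during the arrest and released into galactose, so galactose itself was common to both. Each strain had 1 G1 library and 1 library at each of 11 times (5, 10, 15, 20, 25, 30, 35, 40, 45, 50 and 60 min after release). There were no replicates, so no test of the strains was possible and every difference describes these 2 time courses.

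Replication in yeast starts at origins, known as autonomously replicating sequences (ARS). The origin recognition complex binds them, the MCM helicase is loaded in G1, and the Dbf4-dependent and cyclin-dependent kinases then fire them with the help of Sld2, Sld3, Sld7, Dpb11 and Cdc45. These factors are scarce relative to origins, and origins near telomeres are known to fire late in normal cells, where the Sir proteins and Rif1 delay them. Between the telomere and the body of the arm, this zone holds gene families for sugar transport, flocculation and iron uptake as well as unique genes.

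By content the belt was close to the chromosome interior, taken here as all bins over 50 kb from an end. It had 26 annotated origins, or 2.71 per 100 kb, against 2.73 in the interior, and 445 protein-coding genes, or 46.4 per 100 kb against 50.8. Genes for tRNA were sparser, with 8 in the belt (0.833 per 100 kb against 2.54), as were Ty elements and their long terminal repeats, with 18 (1.875 against 3.78). The GC content pooled over its bins was 38.5%, against 38.2% in the interior and 37.3% in the outermost 20 kb.

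The DNA at belt origins from the top and the bottom of the ranking by signed Trep difference is shown first, since these origins are named below. Letters are from the RefSeq R64 assembly, written 5′ to 3′ on the plus strand. Capitals mark 11 bases with the fewest mismatches to the ARS consensus sequence on either strand, and each of these windows has 1 mismatch to it. Only 1 window per origin is marked, and in ARS1004 a window with as few mismatches stays in lower case. None of these origins holds an exact match.

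ARS601 (chrVI:32563-32862, + strand): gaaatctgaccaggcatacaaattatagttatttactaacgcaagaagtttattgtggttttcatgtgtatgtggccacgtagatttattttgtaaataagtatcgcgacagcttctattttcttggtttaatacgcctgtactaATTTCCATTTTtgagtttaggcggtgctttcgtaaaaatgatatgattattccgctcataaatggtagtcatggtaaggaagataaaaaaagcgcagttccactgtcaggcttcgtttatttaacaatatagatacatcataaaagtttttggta
ARS1004 (chrX:23859-24158, + strand): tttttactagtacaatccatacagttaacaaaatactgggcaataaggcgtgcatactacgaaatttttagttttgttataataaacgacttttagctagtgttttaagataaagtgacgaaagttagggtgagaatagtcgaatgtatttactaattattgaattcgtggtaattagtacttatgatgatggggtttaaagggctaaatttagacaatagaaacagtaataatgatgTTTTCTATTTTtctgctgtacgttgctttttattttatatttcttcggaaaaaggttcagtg
ARS1202 (chrXII:31001-31300, + strand): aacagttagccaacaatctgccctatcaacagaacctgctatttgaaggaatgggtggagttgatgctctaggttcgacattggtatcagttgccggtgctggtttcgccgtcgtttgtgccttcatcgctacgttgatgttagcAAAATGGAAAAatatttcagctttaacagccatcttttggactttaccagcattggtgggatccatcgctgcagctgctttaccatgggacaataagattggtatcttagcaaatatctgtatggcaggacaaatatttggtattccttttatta
ARS1303 (chrXIII:31766-31835, + strand): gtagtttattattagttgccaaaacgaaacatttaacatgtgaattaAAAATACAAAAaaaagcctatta
ARS304 (chrIII:30295-30594, + strand): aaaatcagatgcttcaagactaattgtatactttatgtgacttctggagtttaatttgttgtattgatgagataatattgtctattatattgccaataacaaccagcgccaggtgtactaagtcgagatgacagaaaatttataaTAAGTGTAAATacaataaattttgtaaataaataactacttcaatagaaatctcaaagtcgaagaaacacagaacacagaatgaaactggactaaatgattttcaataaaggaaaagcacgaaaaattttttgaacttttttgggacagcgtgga

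ARS601, on the left end of chromosome VI between YFL051C and ALR2, a gene for a magnesium transporter homologue, was the belt origin with the largest advance. It overlaps ARS602, which has the same window in capitals and lies in the same bin. ARS1004 overlaps REE1, a regulator of the enolase gene ENO1, on the left end of chromosome X. ARS1202 lies inside YCT1, which encodes a cysteine transporter, on the left end of chromosome XII. It is annotated as a putative origin from array studies that no plasmid-based assay has yet borne out. ARS1303 on the left end of chromosome XIII and ARS304 on the left end of chromosome III, between KAR4 and RDT1, were the belt origins with the smallest advance and with none. An exact consensus match within 300 bp around the origin's centre was found at 5 of the 26 belt origins (19.2%). Over all 352 annotated origins the share was 34.4%, and over 300-bp tiles of the nuclear genome it was 1.88%. A match is a description of letters and not evidence of use.

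Belt copy number was higher in SSDDCS through the first part of S-phase, and the strains met at its end. Each value is the ratio of a library to the G1 library of the same strain, multiplied by the authors by the mean copy number of the culture from flow cytometry. In sml1Δ the median ratio of the belt was 1.01, 1.02, 1.14 and 1.35 at 5, 10, 15 and 20 min, then 1.53, 1.73, 1.84 and 1.92 at 25, 30, 35 and 40 min, and 1.95, 1.98 and 2.0 at 45, 50 and 60 min. In SSDDCS it was 1.02, 1.10, 1.28 and 1.55 at 5, 10, 15 and 20 min, then 1.785, 1.84, 1.90 and 1.94 at 25, 30, 35 and 40 min, and 1.956, 1.98 and 1.99 at 45, 50 and 60 min. The strains were furthest apart at 25 min and nearly level from 40 min on.

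Within a single library the belt can be set against the interior, and this quotient does not depend on flow cytometry. In sml1Δ the belt lay below the interior by the middle of the time course, at -5.51% of the interior median at 25 min (ratios of 1.53 and 1.62), -3.78% at 30 min and -2.59% at 35 min. The order was the other way round in SSDDCS. The belt was 3.68% above the interior at 20 min and 6.44% above at 25 min, where the medians were 1.785 and 1.68, and 1.999% above at 30 min. At 5, 10 and 15 min and from 40 min on, belt and interior differed by less than 1% in both strains. The noise of a single bin, from neighbouring bins, was between 3.85% and 5.34% in sml1Δ libraries and between 4.89% and 5.67% in SSDDCS libraries. At 25 min the belt lay above the interior at 10 of the 32 chromosome ends in sml1Δ and at 27 in SSDDCS.

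**Figure D1:**
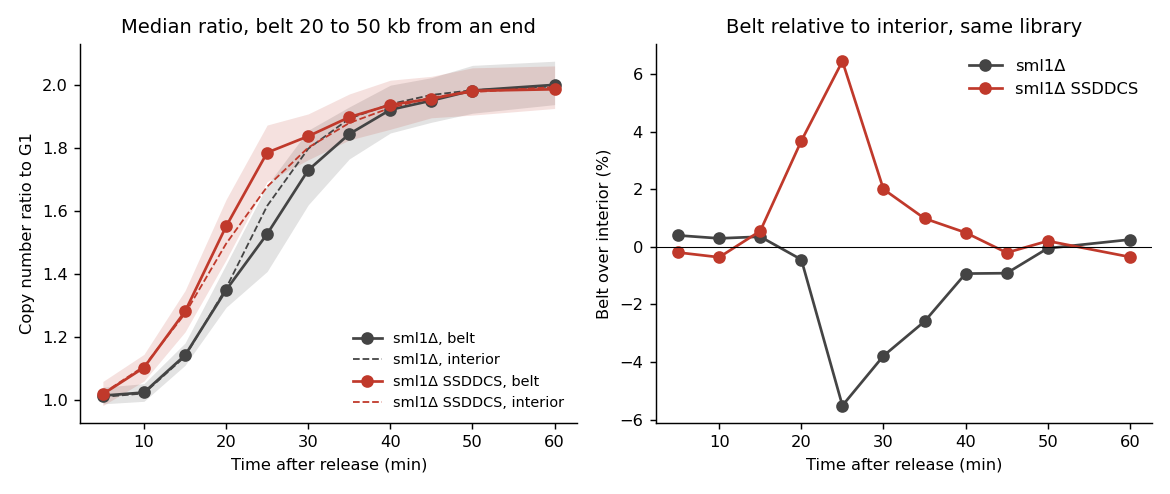
Left, median copy number ratio of the belt (points, solid lines; shading from the lower to the upper quartile over bins) and of the interior (dashed) against time after release in each strain. Right, the belt median relative to the interior median of the same library, in percent: it dips to -5.51% at 25 min in sml1Δ and peaks at 6.44% at the same time in SSDDCS.

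The median replication time (Trep) of a bin is the time at which a sigmoid from 1 to 2 copies, fitted to its 11 ratios, reaches 1.5. Belt bins of sml1Δ had a median Trep of 24.6 min, with quartiles at 21.97 and 27.1 min. In SSDDCS it was 19.6 min, with quartiles at 17.9 and 21.9 min. The median difference of a bin, always SSDDCS minus sml1Δ, was -4.51 min, with quartiles at -6.98 and -2.10 min. A single fit had a median SE of 0.886 min (sml1Δ) or 0.988 min (SSDDCS). The neighbour SD, the error of the difference estimated from adjacent bins, was 2.46 min.

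Interior bins stood at 23.4 min against 21.1 min (sml1Δ, then SSDDCS), with a median difference of -2.12 min. The belt was therefore 1.20 min later than the interior in sml1Δ and 1.52 min earlier in SSDDCS. The belt median stood at percentile 60.2 of all bins in sml1Δ and at percentile 36.3 in SSDDCS. Bins between 60 and 70 kb from an end stood at 42.2 and 31.6, so an early place in SSDDCS was not particular to the belt. The size of the advance depends on the bulk copy number from flow cytometry: when the sml1Δ values were given to both strains, the belt difference was -2.32 min and that of the interior 0.0285 min. The gap between belt and interior hardly moved, from -2.39 to -2.35 min.

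Of the 901 belt bins, 810 were earlier in SSDDCS (89.9%), against 76.6% of all 11307 fitted bins. An advance of at least 5 min was found in 405 (45.0%), against 22.5% of all bins. A delay of at least 5 min was found in 1, against 1.76% of all bins. With the sml1Δ bulk values in both strains, 671 belt bins remained below 0 (74.5%), against 52.4% of all bins.

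Over the pooled bins the advance was larger towards the telomere side of the belt. End by end, the slope of the difference on distance had that direction at 20 of the 32 ends and the opposite one at 12, among them the right ends of chromosomes VII, XII and XVI. Between 20 and 30 kb, Trep moved from 24.9 to 19.2 min, with a median difference of -5.26 min over 280 bins. Between 30 and 40 kb it moved from 24.6 to 19.4 min, with -4.39 min over 305 bins. Between 40 and 50 kb it moved from 24.1 to 20.2 min, with -3.86 min over 316 bins. The share of bins earlier by at least 5 min was 54.3%, 44.3% and 37.3% in these steps, against 19.8% in the interior. Further in, the difference was -3.30 min between 50 and 60 kb and -2.76 min between 60 and 70 kb. The difference thus declined past the inner border of the belt with no step there. Trep itself moved from 23.9 to 19.9 min and from 22.7 to 19.2 min in these steps, so in SSDDCS they were about as early as the belt. The outermost 20 kb, with 292 fitted bins and 52.7% of its possible bins absent, had median Trep of 24.8 and 19.7 min and a difference of -4.996 min. Belt minus outermost medians were -0.246 min for sml1Δ and -0.0626 min for SSDDCS, so these zones were close.

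**Figure D2:**
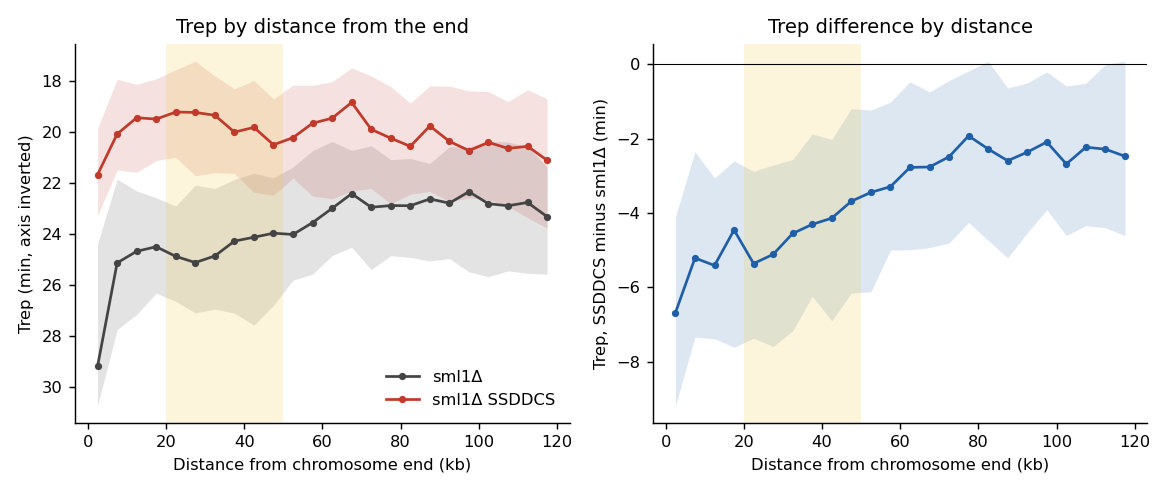
Median Trep in each strain (left, axis inverted so that early is up) and median Trep difference, SSDDCS minus sml1Δ (right), in 5-kb steps of distance from the nearest chromosome end, with quartiles over bins as shading and the belt in yellow. The 2 strains are furthest apart near the end, and across the belt the median difference goes from -5.36 min (20 to 25 kb) to -3.68 min (45 to 50 kb).

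At every one of the 32 ends the median difference of the belt bins was below 0, with a mean over ends of -4.54 min ± 2.25 (SD, 32 ends of the same libraries). The advance was at least 5 min at 15 ends and under 2 min at 8. Both counts rested on the bulk values. With the sml1Δ values in both strains the advance was at least 5 min at 3 ends (VI left, X left and VII right), and the same 8 were later in SSDDCS, by between 0.466 and 1.66 min, and the other 24 stayed earlier. The ends were also more alike in SSDDCS. End medians of Trep had a mean of 24.4 min ± 2.92 (SD) and a range of 11.4 min in sml1Δ, against 19.8 min ± 1.63 and 6.33 min in SSDDCS. In sml1Δ, 6 ends were below 21 min and 14 above 25 min. In SSDDCS, 25 were below 21 min and 0 above 25 min. The order of the ends was partly kept, with Pearson r = 0.602 and Spearman rho = 0.595 across ends, which share libraries and G1 denominators. The belt was later than the interior of its own chromosome at 23 ends in sml1Δ and at 6 in SSDDCS. Left and right ends of a chromosome differed in the advance by up to 5.39 min, and by under 1 min on 4 chromosomes.

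**Figure D3:**
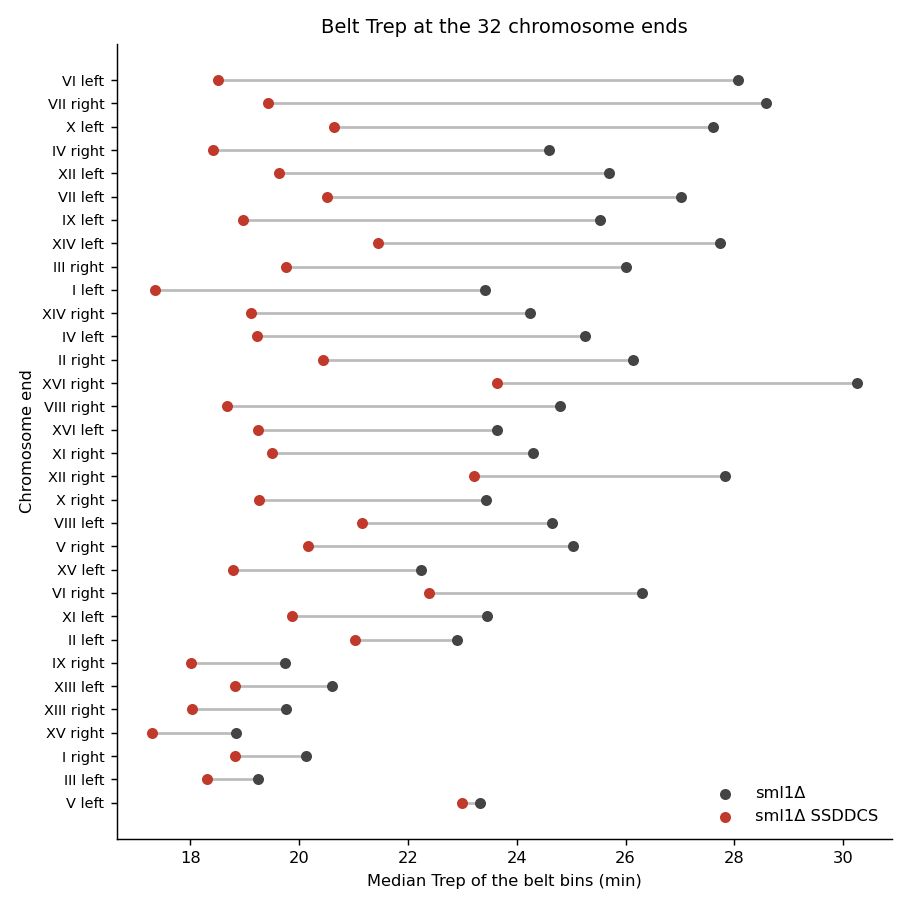
Median Trep of the belt bins at each of the 32 chromosome ends in sml1Δ (grey) and SSDDCS (red), sorted by the median difference of the bins, with the largest advance on top. All red points lie left of their grey partners, although the 8 lowest ends change sign when both strains are given the sml1Δ bulk values; end medians span 11.4 min (sml1Δ) and 6.33 min (SSDDCS).

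The left end of chromosome VI had the largest advance. Its belt ratio in sml1Δ was 1.15, 1.35, 1.37, 1.58 and 1.73 at 15, 20, 25, 30 and 35 min. The flat stretch between 20 and 25 min was shared by other late ends of sml1Δ. Examples are the right end of chromosome XVI (1.31 and 1.30) and the left end of chromosome X (1.33 and 1.36). In SSDDCS the ratio of the left end of chromosome VI was 1.30, 1.59, 1.85, 1.87 and 1.93 at 15, 20, 25, 30 and 35 min. Relative to the interior this end stood at -15.4% at 25 min in sml1Δ and at 10.05% in SSDDCS. Median Trep was 28.1 min for sml1Δ against 18.5 min for SSDDCS. All 30 of its bins were earlier, 27 of them by at least 5 min, and the median difference was -8.80 min.

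The right end of chromosome VII followed with Trep of 28.6 and 19.4 min and a difference of -8.25 min, though no origin is annotated in its belt. At 30 min its ratio was 1.53 in sml1Δ (-14.7% relative to the interior) and 1.83 in SSDDCS (1.78%). Smoothed over 9 bins, its Trep in sml1Δ ran from 24.5 min at 23.4 kb to 35.4 min at 49.4 kb, the widest span of any end in that strain. In SSDDCS it ran from 17.8 min at 26.4 kb to 25.8 min at 49.4 kb. The belt bin with the largest advance lay here, at chrVII:1043001-1044000, over RTT102, a subunit of the SWI/SNF and RSC chromatin remodellers, and parts of TAF1, a subunit of TFIID, and RNH70, an RNA exonuclease. Its Trep went from 37.8 min ± 2.16 (fit SE, sml1Δ) to 19.9 min ± 1.28 (SSDDCS), which is a difference of -17.8 min ± 2.52. The mean difference over the 5 bins of TAF1 was -10.2 min. These include this bin, which stood out among them, and reach inward past the belt.

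The left end of chromosome X (27.6 to 20.6 min, -7.96 min), the right end of chromosome IV (24.6 to 18.4 min, -6.47 min) and the left end of chromosome XII (25.7 to 19.6 min, -6.47 min) came next. At each of the latter pair all 30 belt bins were earlier. The right end of chromosome XVI was the latest of all in both strains, with 30.3 min (sml1Δ) and 23.6 min (SSDDCS). Its ratio at 25 min was 1.30 in sml1Δ (-19.4% relative to the interior) and 1.60 in SSDDCS (-4.68%). The smoothed trough moved from 33.5 min at 41.6 kb to 27.3 min at 37.6 kb, so the shape of the profile was similar at an earlier time.

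The smallest advances were at the right ends of chromosomes XV (18.8 to 17.3 min, -1.21 min) and I (20.1 to 18.8 min, -1.17 min) and at the left ends of chromosomes III (19.2 to 18.3 min, -0.907 min) and V (23.3 to 23.001 min, -0.895 min), and all 4 changed sign with the sml1Δ bulk values in both strains. The ends of XV, I and III were early in the control, below 21 min. At the left end of chromosome III the ratio at 20 min was 1.58 in sml1Δ and 1.64 in SSDDCS, and at 25 min it was 1.89 and 1.855, so sml1Δ had caught up. The right end of chromosome XV was 17.6% above the interior at 20 min in sml1Δ and 10.2% above in SSDDCS. The left end of chromosome V differed from these, being neither early in sml1Δ nor advanced. Its smoothed Trep was latest at 23.5 kb in sml1Δ (26.6 min) and at 26.5 kb in SSDDCS (24.4 min), and on the inner side the profiles crossed.

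**Figure D4:**
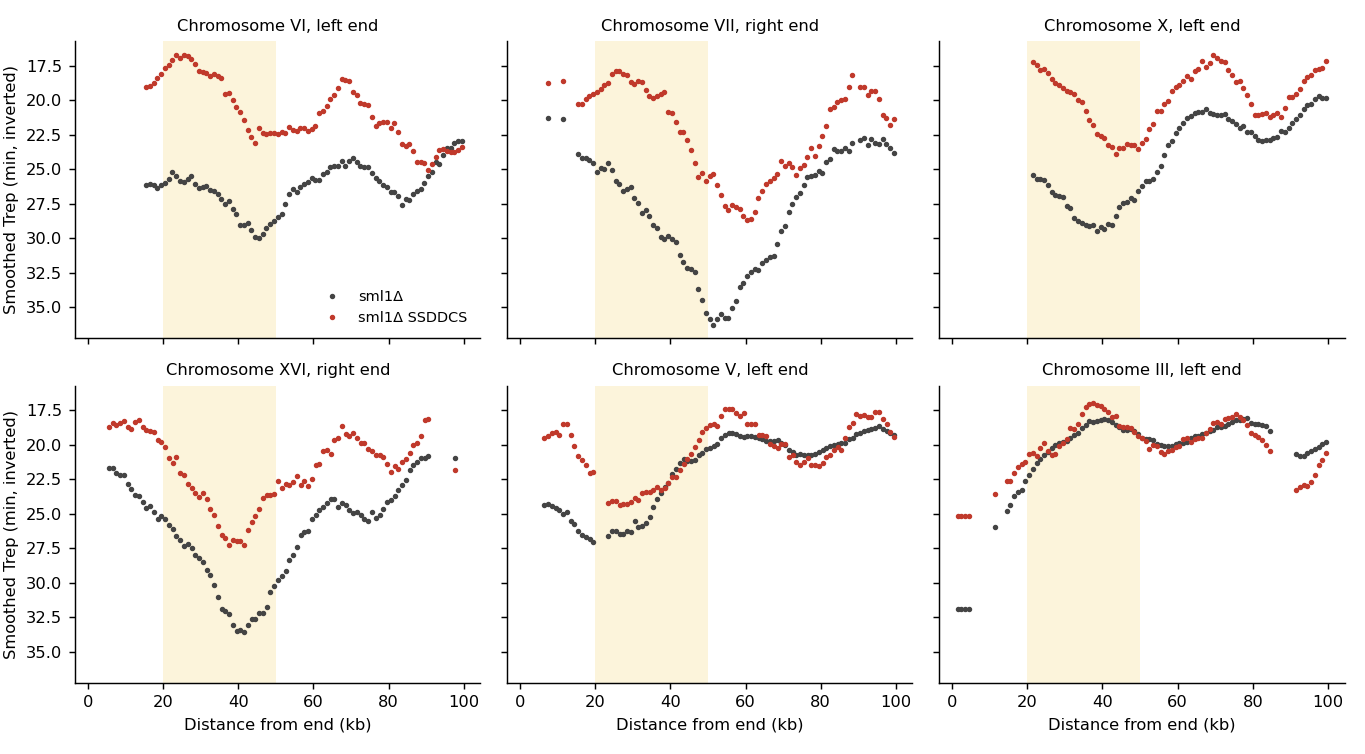
Trep smoothed over 9 bins (axis inverted) against distance from the end for 6 chromosome ends in sml1Δ (grey) and SSDDCS (red), with the belt in yellow. The strains are apart through the belt at the left ends of VI and X and the right ends of VII and XVI, where the trough of XVI right goes from 33.5 to 27.3 min, and lie close together at the left end of III.

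The 26 annotated origins of the belt fall in 25 distinct bins, and each could be fitted in both strains. In all, 25 were earlier in SSDDCS (96.2%, against 86.2% of the 282 interior origins with a Trep), 14 of them by at least 5 min (53.8% against 25.5%), and 1, ARS304, was later. With the sml1Δ bulk values in both strains 19 of the 26 stayed earlier (73.1% against 55.0%), 5 by at least 5 min (19.2% against 6.03%). Median Trep at belt origins was 22.98 min for sml1Δ against 18.8 min for SSDDCS, with a median difference of -5.03 min. At the interior origins it was 20.99 and 18.2 min, with -2.94 min, so belt origins were nearly level with interior origins in SSDDCS. Trep lay below 20 min at 5 belt origins in sml1Δ and at 20 in SSDDCS. The advance exceeded the 95% limit of its fit SE at 19 origins, and that of the neighbour SD (4.83 min) at 14.

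ARS601 and ARS602 were among the latest origins of the control and had the largest advance. In sml1Δ the ratio of their shared bin was 1.135, 1.28, 1.33, 1.55, 1.685 and 1.84 at 15, 20, 25, 30, 35 and 40 min, and in SSDDCS it was 1.29, 1.53, 1.90, 1.73, 1.87 and 1.94. Trep went from 29.1 min ± 0.712 (fit SE) to 19.4 min ± 1.22, and the difference of -9.69 min ± 1.41 was far above the neighbour SD. The SSDDCS value at 25 min stood above both of its neighbours in time. ARS600.4, nearer the telomere in AQY3, an aquaporin-like gene, went from 25.6 to 18.7 min (-6.87 min ± 1.44).

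ARS1004 went from 27.3 to 19.4 min (-7.96 min ± 1.90). ARS1202, a putative origin, had the earliest fitted Trep of the annotated belt origins in SSDDCS, at 14.4 min ± 1.36 against 22.3 min ± 1.76 in sml1Δ. Its ratio was 1.235, 1.38 and 1.615 at 15, 20 and 25 min in sml1Δ and 1.53, 1.84 and 2.03 in SSDDCS. At 5 min the ratio was already 1.09 (sml1Δ) and 1.12 (SSDDCS), beside belt medians of 1.01 and 1.02. By 60 min it had reached 2.31 (sml1Δ) and 2.30 (SSDDCS), above the 2 copies the fit allows. The effect of these high ratios on its Trep was not tested, so its rank is uncertain. ARS105, on the left end of chromosome I between GPB2, a regulator of protein kinase A signalling, and PEX22, a peroxisomal membrane protein gene, went from 22.9 min ± 0.550 to 15.5 min ± 0.798 (-7.39 min). ARS1022, on the right end of chromosome X between DAN1 and DAN4, genes for cell wall mannoproteins made in anaerobic cells, went from 26.1 to 18.9 min (-7.20 min ± 1.495).

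Beside the silent mating-type locus HMR on the right end of chromosome III lie ARS317, annotated as the HMR-E silencer, and ARS318, next to HMRA1. ARS317 was among the latest belt origins in sml1Δ, at 29.5 min, and was at 22.9 min in SSDDCS (-6.64 min ± 1.73). ARS318 went from 27.5 to 19.9 min (-7.57 min ± 1.26). Both were therefore earlier by more than the neighbour-based limit of 4.83 min.

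Some belt origins that were early in the control had little advance. ARS305 on the left end of chromosome III was the earliest belt origin of sml1Δ, with ratios of 1.29, 1.70 and 1.94 at 15, 20 and 25 min, against 1.46, 1.73 and 1.86 in SSDDCS. Its Trep went from 17.5 to 16.4 min (-1.13 min ± 0.899), and the difference was 1.49 min with the sml1Δ bulk values in both strains. ARS1303 was at 18.9 and 18.3 min (-0.559 min ± 1.21), and at 2.08 min on those values. ARS1332 on the right end of chromosome XIII was early too, at 18.7 min, but had a Trep of 15.2 min in SSDDCS (-3.55 min ± 0.844). Some later origins advanced less than ARS1332, such as ARS1604 (22.3 min in sml1Δ, -1.55 min ± 1.67) and ARS316 (24.6 min, -1.45 min ± 2.24). The difference holds the control Trep with a minus sign, so a link between them is partly built in.

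ARS304 had ratios of 1.16, 1.59, 1.81 and 1.95 at 15, 20, 25 and 30 min in sml1Δ and 1.30, 1.53, 1.65 and 1.82 in SSDDCS. The SSDDCS library was higher at 15 min and lower afterwards. Trep was 19.5 and 21.2 min, and the difference of 1.71 min ± 1.68 (SE) was below the neighbour SD. It became -2.96 min when the plateau of each bin was fitted rather than held at 2 copies.

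**Figure D5:**
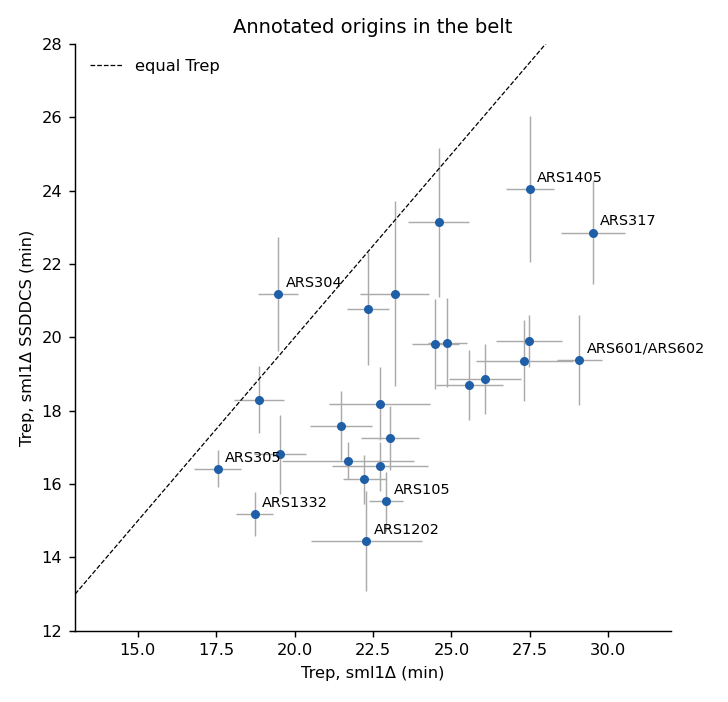
Trep of the bins that hold the annotated belt origins, sml1Δ on the horizontal and SSDDCS on the vertical axis (min), with fit SE as bars and equality as the dashed line. All points but ARS304 lie below the line, though ARS305 and others near it cross it with the sml1Δ bulk values in both strains; ARS601/ARS602 goes from 29.1 to 19.4 min.

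The advance was not limited to bins near annotated origins. Within 5 kb of an origin, belt Trep was 23.2 min for sml1Δ against 18.1 min for SSDDCS, with a median difference of -4.88 min over 237 bins. Over 20 kb from any origin it was 25.1 and 20.1 min, with -4.65 min over 181 bins at 14 ends. In the interior the same classes gave -2.76 and -1.60 min, and interior bins over 20 kb from an origin had a Trep of 25.6 min in SSDDCS. Ends with an annotated belt origin (19) and ends with none (13) had median differences of -4.76 and -4.33 min.

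Local minima of the smoothed Trep profile, the usual sign of an active origin, numbered 15 at 15 ends in sml1Δ and 24 at 23 ends in SSDDCS. This is 1.66 and 2.66 per 100 kb of belt bins, beside 1.85 and 2.39 in the interior, so more were found in SSDDCS in both zones. The Trep of SSDDCS was also noisier, with a neighbour SD of 2.06 min against 1.22 min, and its part in these counts was not tested. Their median smoothed Trep was 22.4 and 17.5 min, respectively. Of the sml1Δ minima 14 had an SSDDCS minimum within 5 kb, and 10 SSDDCS minima had no sml1Δ counterpart at that distance, among them the one on the right end of chromosome VII at 26.4 kb. Within 3 kb of an annotated origin lay 8 of the sml1Δ minima and 10 of the SSDDCS minima. Minima far from any annotated origin appeared in both strains on the right end of chromosome XV, 73.9 kb (sml1Δ) and 69.9 kb (SSDDCS) away, near the iron reductase gene FRE3, and on the left end of chromosome VII, 41.9 kb away. The counts depended on smoothing: averages over 5 bins gave 29 and 52 minima, and a prominence of 2 min left 9 in sml1Δ.

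Of the 445 protein-coding genes of the belt 436 had a Trep, taken as the mean over the bins they overlap. In SSDDCS 397 were earlier, 186 of them by at least 5 min (42.7%, against 18.7% of 5797 such genes in the genome). The share of all genes earlier by any amount was not counted. Of all fitted bins it was 76.6%. The median difference was -4.34 min, against -2.27 min over all genes. With the sml1Δ bulk values in both strains 321 genes of the belt stayed earlier, 72 by at least 5 min, with a median of -2.24 min. On those values 52.4% of all fitted bins stayed earlier, and genes outside the belt were not counted. None of the 6 genes whose products are over-expressed has its native copy in the belt.

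Families that cluster near chromosome ends had 20 members in the belt, 18 of them with a Trep. Of these 16 were earlier, beside 397 of the 436 belt genes with a Trep. The advance was at least 5 min at 11 (61.1%, against 35.6% of the 73 members with a Trep in the genome and 42.7% of belt genes). The median difference of the 18 was -6.02 min, while for those 73 it was -2.87 min. On the sml1Δ bulk values 14 of the 18 stayed earlier, 5 by at least 5 min, with a median of -3.88 min. Among the 436 belt genes these counts were 321 and 72. The ferric reductase gene FRE4 on the right end of chromosome XIV had the largest advance, from 26.2 to 16.3 min (-9.89 min ± 0.868). On the left end of chromosome X the hexose transporter genes HXT9 (-8.59 min, 1 bin) and HXT8 (-7.65 min) and the isomaltase gene IMA5 (-8.10 min) lie within a few kb of ARS1004 and were all earlier. IMA1 on the right end of chromosome VII was at -7.76 min and DAN4 at -6.52 min. At the other extreme, FRE3 and FRE5 on the right end of chromosome XV had differences of -1.98 and -0.959 min, which became 0.627 and 1.28 min on the sml1Δ bulk values. The flocculin gene FLO11 (0.752 min ± 0.849) and IMA2 (0.468 min ± 2.62) were above 0 by less than their error. They stood at 2.41 and 2.28 min on the sml1Δ bulk values. The belt bin with the largest delay, chrIX:393001-394000, covers the end of FLO11 and its non-coding RNA ICR1, at 21.5 min in sml1Δ and 26.9 min in SSDDCS (5.35 min ± 1.68). Many FLO, HXT and IMA genes are near-copies of each other, and FLO1, FLO5, FLO9, HXT9, HXT13 and IMA2 had only 1 bin each, so their values are uncertain.

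All 7 meiosis and sporulation genes in the belt were earlier, beside 397 of the 436 belt genes with a Trep. The advance was at least 5 min at 4 of the 7 (57.1%, against 20.3% of the 59 genes of that list in the genome and 42.7% of belt genes). On the sml1Δ bulk values 5 of the 7 stayed earlier, beside 321 of the 436, and 1 by at least 5 min, beside 72. With each table's median set to the mean bulk value 0 of the 7 were earlier by that much, beside 63 of the 436. The genes were ZIP2, a synapsis factor (27.6 to 20.1 min, -7.50 min), ADY3, a spore wall factor (-7.27 min), SPS2 (-7.03 min), the kinase gene SPS1 (-5.72 min), the meiotic recombinase gene DMC1 (21.6 to 17.1 min, -4.49 min), MND2 (-1.21 min) and SPS22 (-0.974 min). The last pair lay at early ends of the control, with Trep of 19.7 and 19.0 min in sml1Δ. The 8 tRNA genes of the belt had a median difference of -2.06 min, against -1.34 min over 265 tRNA genes in the genome. Of the 8, 5 were earlier, beside 397 of the 436 belt genes and 76.6% of all fitted bins. The advance was at least 5 min at 1 (12.5%, against 10.6% of 265 tRNA genes in the genome). On the sml1Δ bulk values 3 of the 8 were earlier, beside 321 of the 436 belt genes and 52.4% of all fitted bins. Their median was then 0.678 min.

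The 56 absent belt bins (5.83% of those possible, against 3.30% in the interior) were not spread evenly. The right end of chromosome VIII lacked 17, around FLO5, and the right end of chromosome I lacked 11, around FLO1 and MST28. The left ends of chromosomes I and XV lacked 6 each, around FLO9 and around IMA2, HXT11 and HPF1, and 21 ends lacked none. In the absent bins a median of 37.6% of 50-base stretches occur once in the R64 genome, against 100% in the belt bins that were kept. Values for FLO5, FLO1 and their neighbours therefore come from the few bins left.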

How the data were processed

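Genomic DNA of the 2 strains was sequenced at 11 times and in G1. Per the study's methods and the submitters' processing notes, the authors mapped reads with Bowtie2 (2.2.6) to the S288C genome (sacCer3, R64), used SAMtools (the methods and the notes name different versions) and bedtools (2.26.0), counted reads in 1-kb bins, divided each bin by the same bin of the G1 library, and multiplied the ratio by a bulk factor from flow cytometry. The deposited ratio and bulk factor are both ratios, and the deposited tables hold no read counts, so depth is unknown and precision was taken from neighbouring bins. All times of a strain share 1 G1 denominator, whose noise the fit SE does not hold. The strains are W303, so DNA that differs from S288C was not counted in its own right. Strain and time were taken from the titles.

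Trep was fitted by least squares in each strain and kept with at least 9 times, a value from 5 to 60 min and an SE up to 5 min in each strain. The fit was tested on data simulated from the same sigmoid from 1 to 2 copies, so bins with a plateau far from 2 were not covered. Genes, origins and sequences came from RefSeq R64. Profiles were averaged over 9 bins, and minima needed a prominence of 1 min. Ends, origins, genes and bins were named by rank of their difference, and origins needed an SE up to 2 min. The members, lists and rules were chosen with earlier results of these data known. The alternatives were other fits, filters, borders and bulk factors, and each library left out in turn. Python 3.11.15, numpy 2.4.6, pandas 2.3.3, scipy 1.17.1, scikit-learn 1.9.0 and matplotlib 3.10.9 were used.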

Additional observations from a re-analysis of the deposited data

How the results depend on the processing

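The gap between belt and interior in the Trep difference stayed between -2.74 and -1.78 min over all alternatives, and was smallest without the 25 min SSDDCS library. The size of the advance itself depended on the bulk values. With the sml1Δ bulk values in both strains, or with each table's median set to the mean bulk value, the belt difference was -2.32 or -2.03 min, belt Trep in SSDDCS 21.9 or 21.2 min, and belt bins earlier by at least 5 min 204 (22.6%, against 8.03% of all bins) or 190 (21.1%, against 8.07%). The steps from 20, 30 and 40 kb then gave -3.14, -2.20 and -1.80 min, or -2.89, -1.91 and -1.42 min. ARS305 turned to 1.49 or 1.70 min and ARS1303 to 2.08 or 2.53 min. Only the scaling differs between these settings and the reported one. With the plateau fitted per bin, belt Trep in SSDDCS was 18.6 min, 51.9% of belt bins and 21.4% of all bins were earlier by at least 5 min, and ARS304 turned to -2.96 min. Averaging ratios over 5 bins gave 49.2% and 18.1%, and interpolation without a sigmoid gave 49.7% and 24.2%. For these fits the cause was not tested. Minima numbered 9 in sml1Δ with a prominence of 2 min, and 29 and 52 with smoothing over 5 bins.

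Leaving out each library in turn moved the belt difference between -4.86 and -3.96 min, belt Trep between 24.4 and 24.9 min in sml1Δ and between 19.4 and 20.2 min in SSDDCS, and belt bins earlier by at least 5 min between 347 and 437 (38.5% to 48.9%, with 21.6% to 25.5% of all bins). The 3 distance steps ranged from -5.61 to -4.72, from -4.76 to -4.10 and from -4.25 to -3.25 min, and all 32 ends stayed earlier. ARS1303 ranged from -1.28 to 0.373 min and turned to 0.297 min without the 20 min sml1Δ library and to 0.373 min without that of SSDDCS. Belt origins earlier in SSDDCS numbered 23 to 25. No paired analysis was possible because the labels give 1 library per strain and time point. Depth, unknown here, limits single bins, whose neighbour SD was 2.46 min.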
